A study of Mus musculus with 12 samples.

Results

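Resident biliary epithelial cells of the mouse liver (BEC) were compared with hepatocytes that had taken on biliary surface markers, here called full after their label Rep_full. The comparison takes the 6 bulk RNA-seq libraries whose titles name these 2 groups, 3 of each, out of 12 in the series, and covers all genes. The question is which functions of native biliary cells converted hepatocytes did not reach, and which features they carry that native biliary cells do not. BEC were sorted from liver as EGFP- Epcam+ cells, with no Cd24 gate in the label, and full cells as EGFP+ Cd24+ Epcam+ cells. The other 6 libraries come from EGFP+ cells at earlier stages, early (Cd24- Epcam-) and intermediate (Cd24+ Epcam-), 3 of each, and enter the fit, where all groups share 1 estimate of spread, and serve as reference levels. All mice had the genotype WT in the labels and received AAV8-TBG-Cre, a virus in which the hepatocyte promoter TBG drives Cre recombinase, so that EGFP marks hepatocytes and their descendants. From 1 week later all were fed 0.1% DDC (3,5-diethoxycarbonyl-1,4-dihydrocollidine), a diet that injures bile ducts, for 8 weeks, so no group stands for an uninjured liver. The EGFP reporter allele, strain, age, sex and number of mice are not given in the sources used here. BEC are defined by the absence of EGFP, so a converted hepatocyte that Cre had not marked would fall in that gate. In turn, a resident biliary cell with Cd24 that carried EGFP would fall in the full gate.

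The intrahepatic bile ducts are lined by cholangiocytes, polarised epithelial cells that modify bile by secreting chloride, bicarbonate and water and by taking up glucose, bile acids and other solutes. They coat their apical surface with mucins, send primary cilia into the lumen, and rest on a laminin-rich basement membrane. Hepatocytes share an embryonic precursor with them, make most plasma proteins and bile acids, and can express biliary genes under chronic injury, a change known as hepatobiliary reprogramming or ductular metaplasia.

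Total counts were between 17346269 and 18201429 in BEC and between 18400883 and 19731887 in full libraries. Mitochondrial genes held 2.88% ± 0.470 of the counts in BEC and 2.33% ± 0.141 in full (SD, n = 3 each), with no overlap between groups (exact permutation test, 2-sided p = 0.1, the smallest that 3 against 3 allows). Total counts also did not overlap, with the full libraries deeper (exact permutation p = 0.1). In both groups replicate 1 stood furthest from the other 2 libraries. The labels do not say that replicates came from separate mice, so the p-values below measure the spread between these libraries, which may be technical.

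The marker that separates both groups from the earlier stages, the epithelial adhesion molecule Epcam, was checked first. Epcam stood at 846, 907 and 844 CPM in BEC and 283, 273 and 207 CPM in full. It was present in all 6 libraries, as the sort requires, and every BEC library lay above every full library, with a log2 fold change of 1.77 ± 0.22 (SE) and an adjusted p of 0.000108 by edgeR's quasi-likelihood test, Benjamini-Hochberg adjusted over all genes tested, as are all adjusted p-values below. Log2 fold changes are BEC minus full throughout, so positive values are higher in BEC, and the ± after one is its SE. Cd24a, the transcript of the second sort marker, stood at 1299.8, 1002 and 918 CPM in BEC and 1178, 1112 and 931 CPM in full. Its groups overlapped and it was not called, with a log2 fold change of -0.00 ± 0.27, although only the full gate selected for Cd24.

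Markers of some other liver cells were detected. None of the 10 neutrophil or 12 T and NK cell markers, and 2 of the 10 B and plasma cell markers, passed the filter on low counts, and the haemoglobin genes had 0 counts in all 6 libraries. Igkc, the immunoglobulin kappa constant region, stood at 43, 15.6 and 45.1 CPM in BEC and 11.2, 4.28 and 17.1 CPM in full. It was called higher in BEC (1.67) although the groups overlapped, but not with DESeq2 (adjusted p = 0.0629), the 6 libraries alone (0.147) or no filter (0.148). The immunoglobulin joining chain Jchain was not called (1.43), but was with the replicate block (adjusted p = 0.0018), with DESeq2 (0.0318) or without BEC replicate 2 (0.0305). Of 12 macrophage markers tested, 2 (Cd68, 1.10, and Csf1r) were higher in BEC and none higher in full, and the summed level of the list was 135 to 169 CPM in BEC against 67.7 to 99.7 in full. Most of that sum was Csf1r, the receptor for colony-stimulating factor 1, at 128, 133 and 119.6 CPM in BEC and 61, 69 and 73.4 CPM in full. The Kupffer cell markers Adgre1 and Timd4 did not pass the filter, while Clec4f, Vsig4, Marco and Cd5l did and were not called (0.99, 0.71, 0.45 and 0.85). All 12 tested markers had a log2 fold change above 0, with a median of 0.84. Those of Clec4f, Vsig4, Marco and Cd5l were below 0 without BEC replicate 3. Of 14 stellate cell and fibroblast markers tested, 2 were higher in full and none in BEC, and the sum of 1702 to 2276 CPM in BEC against 2999 to 3466 in full was mostly Rgs5, a regulator of G-protein signalling, at 2192, 1974 and 1589.5 CPM in BEC and 3398, 2944 and 3214 CPM in full. The collagen genes Col1a1, Col1a2 and Col3a1 were not called, at log2 fold changes of 0.22, 1.07 and 1.17. With the replicate block Col1a2 was called higher in BEC (adjusted p = 0.0457), the only member of the list so called. Of 13 endothelial markers tested, 1 was higher in BEC (Vwf, 1.19) and 1 in full (Stab1, -0.85, adjusted p = 0.0559 with the replicate block). Of 5 mesothelial markers tested, Msln (3.21) and Gpm6a (1.78) were higher in BEC, and 3, among them the mesothelial regulator Wt1 (-1.52), were not called, and the list summed to 225 to 249 CPM in BEC against 29.7 to 44.97 in full. The tested B and plasma cell markers summed to 20.9 to 60.5 CPM in BEC and 6.55 to 22.9 in full, and the endothelial markers to 17.4 to 29.6 and 22.0 to 24.0. Of these calls, those of Igkc, Cd68, Vwf and Stab1 were lost in 2 or more of the 6 fits that each left out 1 library. The part of such cells in the results below was not tested.

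Of 16210 genes tested, 3443 were called at an adjusted p under 0.05, which is 21.2%, and 4957 had an unadjusted p under 0.05. The calls divided almost evenly. BEC were higher for 1718 genes (10.6%) and full for 1725 (10.6%), and over all tested genes the log2 fold changes had a median of 0.00. Differences of at least 2-fold numbered 901 in BEC and 845 in full, at least 8-fold 123 and 155, and at least 16-fold 11 and 50. All 3 BEC libraries lay above all 3 full libraries for 3345 genes (20.6%), and all 3 full libraries above all 3 BEC libraries for 3080. No gene with at least 10 CPM (counts scaled to a common library size) in either group was at the floor of 3 counts in every library of the other. Both groups are sorted populations measured in bulk, so fewer cells that express a gene and less RNA of it per cell cannot be told apart in anything that follows.

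**Figure D1:**
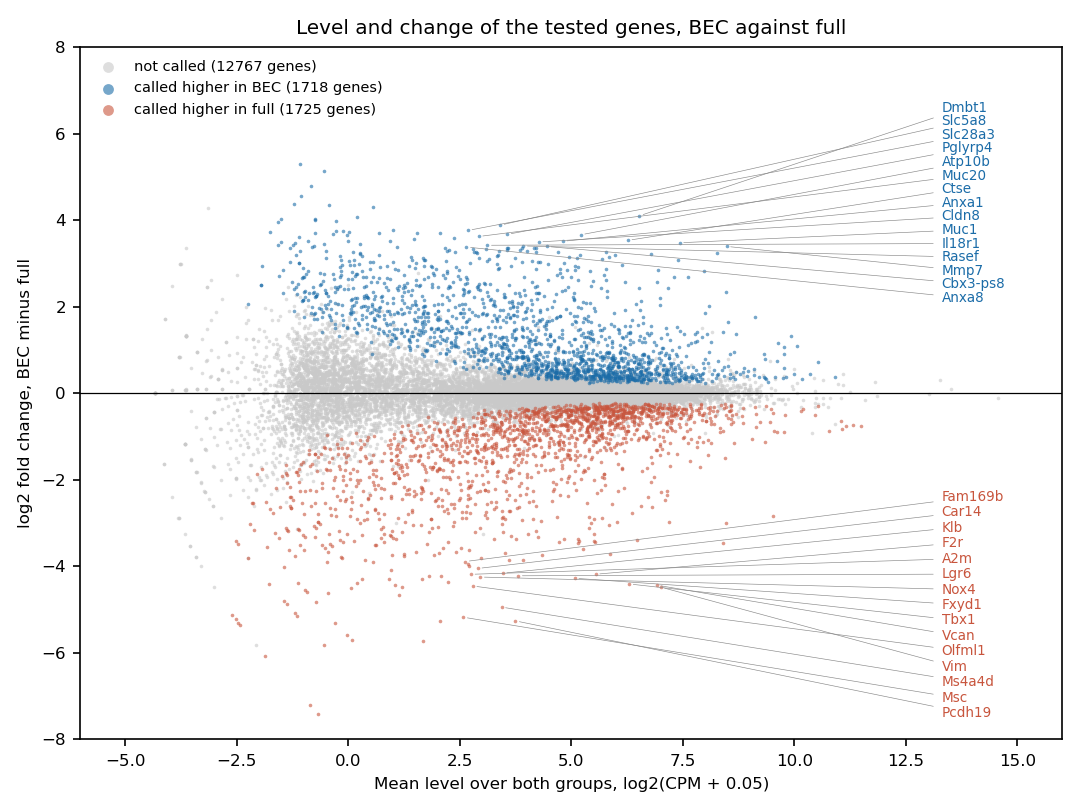
Each point is 1 of the 16210 tested genes, with its mean level over both groups on the x axis (log2 of CPM + 0.05) and its log2 fold change, BEC minus full, on the y axis. Blue points are the 1718 genes called higher in BEC and red points the 1725 called higher in full, and the lines lead to the 15 named genes of each direction.

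Genes were ranked by the size of their difference, keeping those called, averaging 10 CPM or more in the group where they were higher, and without overlap. The 15 leading BEC genes were Dmbt1, Slc5a8, Slc28a3, Pglyrp4, Atp10b, Muc20, Ctse, Anxa1, Cldn8, Muc1, Il18r1, Rasef, Mmp7, Cbx3-ps8 and Anxa8. They include mucosal glycoproteins (Dmbt1, Muc1, Muc20), apical solute carriers (Slc5a8, Slc28a3), a peptidoglycan recognition protein (Pglyrp4), the aspartic protease cathepsin E (Ctse) and a tight junction claudin (Cldn8). Their log2 fold changes ran from 3.38 to 4.10. Ctse stood at 188, 117 and 121 CPM in BEC and 19.1, 8.38 and 9.27 CPM in full, and Anxa1, a calcium-dependent membrane-binding protein, at 63.6, 41.3 and 50 CPM in BEC and 6.64, 3.03 and 3.89 CPM in full. Cbx3-ps8 is a processed copy of Cbx3, and how the authors' counting divided reads between such copies is not given in the sources used here, so its 3.39 is uncertain. The 15 leading genes in full were Pcdh19, Msc, Ms4a4d, Vim, Olfml1, Vcan, Tbx1, Fxyd1, Nox4, Lgr6, A2m, F2r, Klb, Car14 and Fam169b, at log2 fold changes from -5.27 to -3.90. Vcan, the extracellular matrix proteoglycan versican, stood at 9.25, 14.7 and 7.91 CPM in BEC and 189, 254 and 251 CPM in full. Tbx1, a T-box transcription factor of embryonic development, stood at 4.14, 12.6 and 4.34 CPM in BEC and 165, 167 and 118 CPM in full. These 30 genes differ in how the earlier stages look: Vcan and Tbx1 averaged 1.03 ± 0.583 and 2.71 ± 3.57 CPM in early, whereas Fxyd1, a regulator of the sodium pump (-4.28), averaged 214 ± 16.8 CPM there and the FGF co-receptor Klb (-4.17) 48.4 ± 5.75 (SD, n = 3).

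RefSeq promoter sequences on the build GRCm38.p6, 250 bases before to 50 after the start, were found by symbol for 11575 of the 16210 tested genes (71.4%), among them 1285 genes higher in BEC and 1294 higher in full. Each of 6 short motifs was searched on both strands. The AP-1 motif TGANTCA was present in 7.26% of the promoters of genes higher in full, 6.85% of those higher in BEC and 5.37% of all. Among genes at least 2-fold higher the shares were 7.39% for full and 9.34% for BEC. For the TEAD motif GGAATG the shares were 15.9% in full, 12.8% in BEC and 12.3% of all, and for the FOXA motif TGTTTAC 2.63%, 2.49% and 2.60%, in the same order. The HNF4 motif CAAAGTCCA gave 0.850%, 0.700% and 0.492% (1.34% for full and 1.38% for BEC among genes at least 2-fold higher), the C/EBP motif TTGCGCAA 0.155%, 0.389% and 0.268%, and the Grainyhead motif AACCGGTT 0.155%, 0.156% and 0.225%. None of these shares was tested, and a match is a description of letters, not a bound site. The stretches of 120 bases before the start are shown for 3 epithelial genes higher in BEC that hold the AP-1 motif (Mmp7, Prom1 and Car9). Capitals mark the motif, and each sequence reads 5′ to 3′ on the gene's own strand.
Mmp7, chr9:7691970-7692089, plus strand: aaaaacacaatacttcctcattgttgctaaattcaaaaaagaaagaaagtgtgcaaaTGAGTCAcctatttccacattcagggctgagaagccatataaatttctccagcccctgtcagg
Prom1, chr5:44101737-44101856, minus strand: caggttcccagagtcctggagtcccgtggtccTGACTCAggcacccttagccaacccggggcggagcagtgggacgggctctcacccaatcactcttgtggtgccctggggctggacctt
Car9, chr4:43506906-43507025, plus strand: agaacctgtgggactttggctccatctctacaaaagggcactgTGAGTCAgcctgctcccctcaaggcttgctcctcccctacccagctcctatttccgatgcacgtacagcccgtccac

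Gene lists of biliary and hepatocyte functions were described by the number of members called, to be read against the 10.6% of all genes called in each direction. The lists with the largest median in favour of BEC were mucosal secretion and defence (1.48), ductal fluid and bicarbonate secretion (1.19) and biliary epithelial markers (0.80) among the functions of the duct. Those with the largest median in favour of full were fetal liver genes (-1.25), complement and coagulation proteins (-1.10) and secreted plasma proteins (-0.83).

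**Figure D2:**
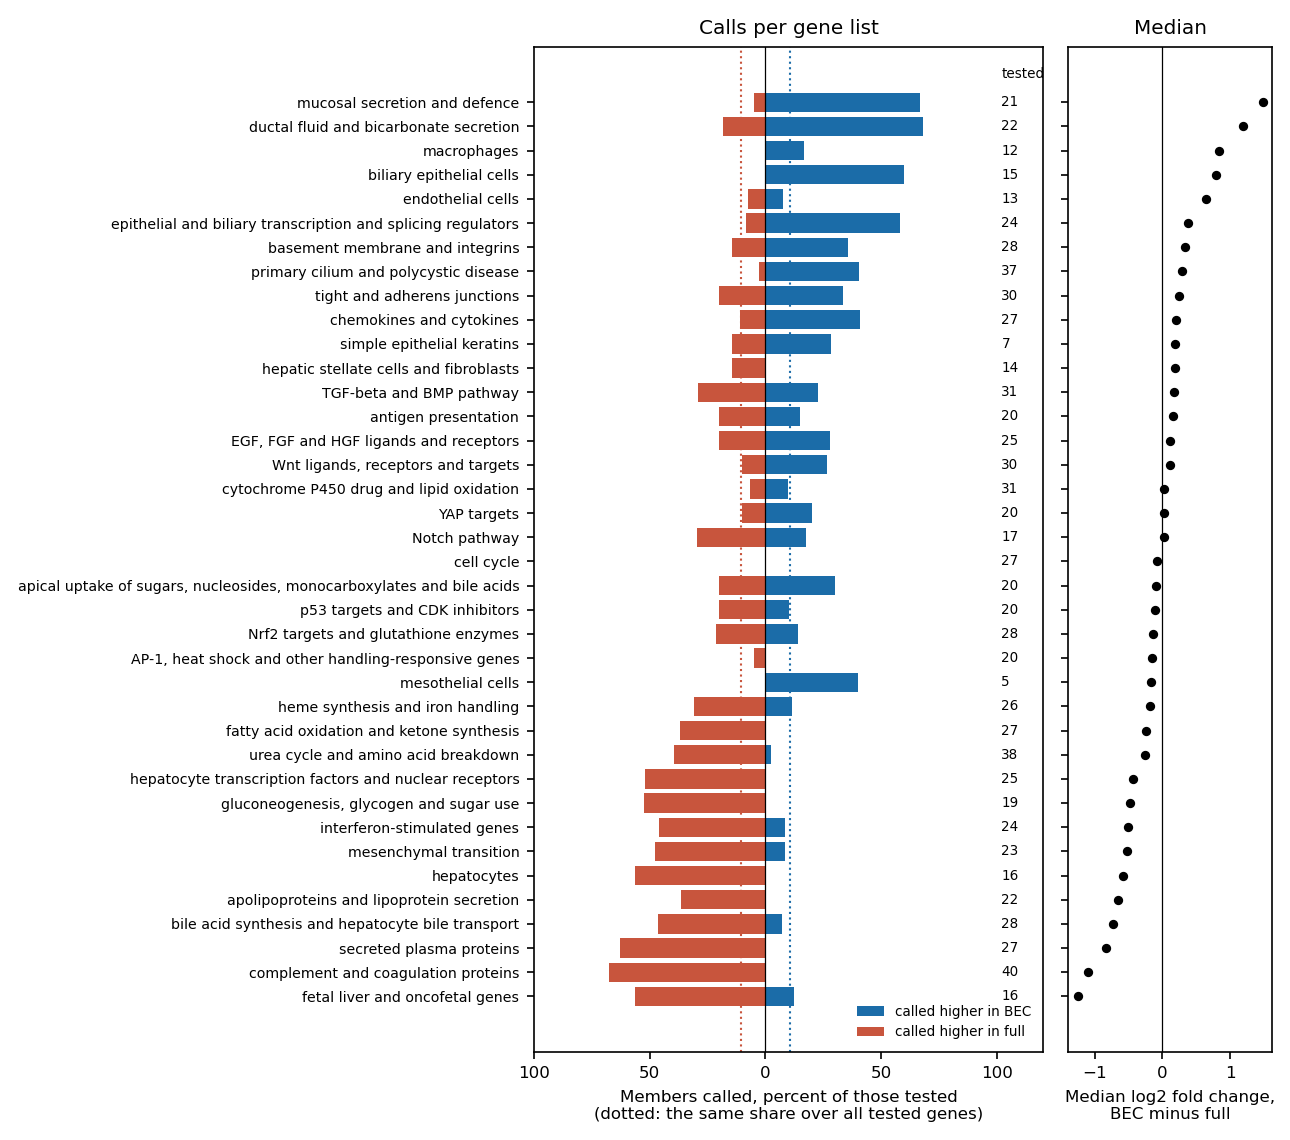
The left panel gives, for each gene list with at least 5 tested members, the percent called higher in BEC (blue, right of 0) and higher in full (red, left of 0), with the number tested at the right and dotted lines at the 10.6% of all genes in each direction. The right panel gives each list's median log2 fold change, BEC minus full, from 1.48 for mucosal secretion to -1.25 for fetal liver genes.

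Genes of fluid secretion lay mostly on the BEC side. Of 22 tested members of the ductal fluid and bicarbonate list, 15 were higher in BEC, 4 higher in full (2 without BEC replicate 1 or 3 or full replicate 2 or 3) and 3 not called, and the list summed to 3742 to 4269 CPM in BEC against 1910 to 2125 in full. Ano1, a calcium-activated chloride channel, stood at 365, 319.9 and 328 CPM in BEC and 61.3, 55.5 and 40.2 CPM in full. Slc12a2, the basolateral cotransporter that loads the cell with chloride, stood at 490.3, 419 and 390.4 CPM in BEC and 129, 113 and 77.8 CPM in full. The groups were far apart for both, with a log2 fold change of 2.69 ± 0.16, adjusted p = 4.82e-08 for Ano1 and a log2 fold change of 2.02 ± 0.16, adjusted p = 7.6e-07 for Slc12a2. The potassium channel Kcnq1 stood at 155, 145 and 165 CPM in BEC and 32, 31.6 and 23.4 CPM in full, and Kcnn4, a calcium-gated potassium channel, at 134, 138 and 151 CPM in BEC and 40.9, 32.3 and 28.2 CPM in full. Car2, the cytosolic carbonic anhydrase that supplies bicarbonate, stood at 243, 187 and 196 CPM in BEC and 45.5, 30.7 and 29.4 CPM in full. Every BEC library was at least several-fold above every full library for these 3 genes, at log2 fold changes of 2.42, 2.06 and 2.57. The purinergic receptor P2ry2 (2.10), the water channel Aqp5 (3.35), the membrane carbonic anhydrases Car9 (2.39) and Car12 (2.94) and the sodium pump subunit Atp1b1 (1.05) were also higher in BEC.

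The secretin arm was less uniform. Sctr, the receptor for the hormone secretin, stood at 126, 98.4 and 97.7 CPM in BEC and 56.3, 38.4 and 34.9 CPM in full, without overlap and with a log2 fold change of 1.31 ± 0.40, adjusted p = 0.0407. Cftr, the chloride channel that secretin opens through cAMP, stood at 267, 258 and 229 CPM in BEC and 130.1, 198 and 152 CPM in full. Its groups did not overlap, yet it was not called (a log2 fold change of 0.65 ± 0.25, adjusted p = 0.0947), but was with the replicate block (adjusted p = 0.0403). The anion exchanger Slc4a2, which puts bicarbonate into bile, and the water channel Aqp1 were not called either (0.05 and 0.70). On the full side were the sodium bicarbonate cotransporter Slc4a4, at 319, 282 and 279 CPM in BEC and 403, 392 and 464 CPM in full (-0.52), the somatostatin receptor Sstr2 (-0.66), the purinergic receptor P2ry1 (-0.97) and the adenylyl cyclase Adcy9 (-0.41). The calls of Sctr, Sstr2 and Adcy9 were lost in 4 or more of the 6 fits that left out 1 library, and that of Sctr also with DESeq2 (adjusted p = 0.0623).

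Solute uptake was mixed: of 20 tested members of the apical uptake list, 6 were higher in BEC, 4 higher in full (2 without BEC replicate 2 or full replicate 1 or 3, and 2 with a mean of at least 50 counts) and 10 not called, with a median of -0.09. Slc5a8, a sodium-coupled monocarboxylate transporter, stood at 23.3, 18.1 and 18 CPM in BEC and 1.45, 1.07 and 1.49 CPM in full. Slc28a3, which concentrates nucleosides, stood at 16.4, 10.7 and 8.54 CPM in BEC and 1.15, 1.2 and 0.262 CPM in full. Both were many-fold higher in every BEC library, with a log2 fold change of 3.88 ± 0.27, adjusted p = 6.84e-07 for Slc5a8 and 3.76 for Slc28a3. The phosphate transporter Slc34a2 (2.62) and the glutamate transporter Slc1a1 (2.84) lay on the same side. Slc10a2, the apical carrier that takes bile acids up from bile, was not called (-0.56), but was called higher in full with the replicate block (adjusted p = 0.0257) and with DESeq2 (0.0366). Higher in full were the bile acid exporter subunit Slc51b, at 0.0963, 0.0932 and 0.137 CPM in BEC and 1.19, 1.11 and 0.7 CPM in full (9.19-fold by summed counts, 95% counting interval 4.23 to 23.7, with 3 counts or fewer in every BEC library), the ascorbate transporter Slc23a1 (-0.98, call lost in 4 of the 6 leave-out fits), the nucleoside carrier Slc29a1 (-0.67) and, by a call that 5 of the 6 leave-out fits lost, the basolateral bile acid exporter Abcc3 (-0.31).

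The mucosal surface programme showed some of the largest differences. Of 21 tested members of the mucosal secretion and defence list, 14 were higher in BEC, 1 higher in full and 6 not called, and the list summed to 2293 to 2904 CPM in BEC against 654 to 1008 in full. Early cells, with 2106 to 2732 CPM, reached about the BEC sum, but not member by member. Muc1, Muc20 and Dmbt1 averaged 0, 0 and 0.027 CPM in early cells. The member higher in full was the secreted protease inhibitor Spink1, at 0.0963, 0.14 and 0.0457 CPM in BEC and 0.893, 0.401 and 1.71 CPM in full (10.7-fold by summed counts, 95% counting interval 4.68 to 30.2, with 3 counts or fewer in every BEC library). Muc1, a transmembrane mucin, stood at 399.7, 267 and 281 CPM in BEC and 39.4, 24.9 and 20.9 CPM in full. Dmbt1, a secreted scavenger-receptor glycoprotein of mucosae, stood at 126, 172 and 223 CPM in BEC and 9.79, 14.7 and 5.99 CPM in full. No full library came near a BEC library for either gene, with a log2 fold change of 3.47 ± 0.31, adjusted p = 7.71e-05 for Muc1 and a log2 fold change of 4.10 ± 0.34, adjusted p = 4.19e-05 for Dmbt1. Fut2, the fucosyltransferase that decorates mucosal glycans, stood at 68.1, 63.6 and 56.6 CPM in BEC and 8.81, 6.6 and 6.3 CPM in full, and Sftpd, the collectin surfactant protein D, at 255, 285 and 286 CPM in BEC and 53.7, 41.9 and 33.2 CPM in full. Both were again apart in all libraries (3.11 and 2.68), as were the transmembrane mucin Muc20 (3.62), the mucus protein Fcgbp (3.32), lactoferrin Ltf (2.85) and the trefoil peptide Tff2 (2.57). Lcn2, the iron-sequestering lipocalin, stood at 1711, 1360.0 and 1077 CPM in BEC and 701, 538 and 413 CPM in full, which is a smaller difference (a log2 fold change of 1.33 ± 0.39, adjusted p = 0.0366) whose call 5 of the 6 leave-out fits lost. Among 5 mesothelial markers tested, Msln and Gpm6a were higher in BEC and 3 were not called. Among 12 macrophage markers tested, Cd68 and Csf1r were higher in BEC and 10 were not called. The call of Cd68 was lost in 2 or more leave-out fits, and the part of such cells in this list was not tested.

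**Figure D3:**
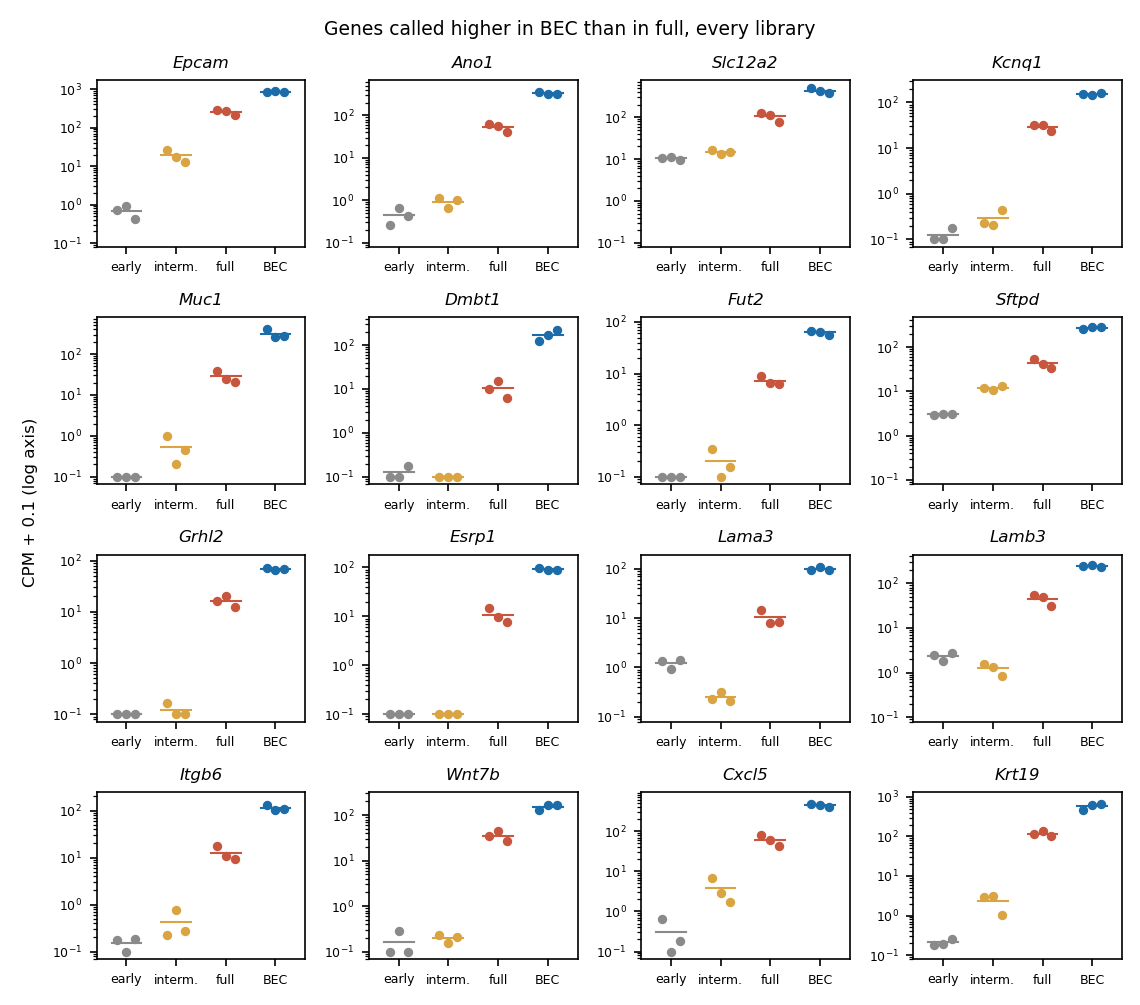
Every library's level (CPM + 0.1 on a log axis) is shown for 16 genes called higher in BEC, by group in the order early, intermediate, full and BEC, with a line at each group's mean. In each panel the 3 BEC points lie above the 3 full points, and the full points lie above those of early and intermediate.

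Genes of epithelial architecture were divided. Among 7 simple epithelial keratins, Krt19 and Krt7 were higher in BEC, Krt20 was higher in full (-2.99) and 4 were not called. Krt19, the standard biliary keratin, stood at 474, 629.8 and 673 CPM in BEC and 113, 139 and 102 CPM in full. Krt7, its biliary partner, stood at 397, 393 and 373 CPM in BEC and 184, 206 and 127 CPM in full. The difference was larger for Krt19 (2.33 ± 0.23) than for Krt7 (1.17 ± 0.31), though the difference between the 2 genes was not tested, and the call of Krt7 was lost in 5 of the 6 leave-out fits and with DESeq2 (adjusted p = 0.0604). Krt8 and Krt18, which hepatocytes also express, were not called (0.18 and -0.10). Of 30 tested junction genes, 10 were higher in BEC, 6 higher in full and 14 not called. Cldn8, a claudin that closes tight junctions to cations, stood at 36.3, 31 and 38.9 CPM in BEC and 3.28, 3.21 and 2.93 CPM in full (3.49). Cdh1 and Cdh2 of the adherens junction differed in opposite directions, and full libraries held both, with more Cdh1 than Cdh2. Cdh1, E-cadherin, stood at 1545, 1539.8 and 1422 CPM in BEC and 1088, 1143 and 1088 CPM in full. Cdh2, N-cadherin, which hepatocytes carry beside E-cadherin, stood at 39, 34.1 and 26 CPM in BEC and 259, 251 and 268 CPM in full. Cdh1 was higher in BEC by a modest amount (a log2 fold change of 0.44 ± 0.09, adjusted p = 0.00284) and Cdh2 was far lower there (a log2 fold change of -2.97 ± 0.13, adjusted p = 3.19e-09), with no overlap for either. Early and intermediate cells averaged 175 ± 16.1 and 223 ± 10.7 CPM of Cdh2 (SD, n = 3). The tight junction protein Ocln was not called (-0.05), whereas Cldn1 (-1.58) was higher in full.

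The regulators of epithelial identity fell on the BEC side for 14 of 24 members, with 2 higher in full and 8 not called. The 14 became 9 without full replicate 3 and 8 without replicate 1 of both groups. Grhl2, a Grainyhead transcription factor that activates epithelial junction genes, stood at 72, 65.2 and 69.1 CPM in BEC and 16.3, 20.6 and 12.1 CPM in full. Esrp1, which directs epithelial splicing, stood at 98.8, 88 and 89.1 CPM in BEC and 15, 9.77 and 7.48 CPM in full. Both were at or near 0 in early and intermediate cells, and both differed between BEC and full in every library (a log2 fold change of 2.07 ± 0.18, adjusted p = 4.17e-06, and a log2 fold change of 3.09 ± 0.23, adjusted p = 3.18e-05). Ehf, an epithelial Ets factor, stood at 491, 482 and 508 CPM in BEC and 193, 188 and 173 CPM in full (1.42), and Klf5 (1.57), Ovol1 (2.69), Ovol2 (1.19), Elf3 (0.94) and Trps1 (1.85) were higher in BEC as well. Among factors that act in the biliary lineage, Onecut2 was higher in BEC (0.34, call lost in 4 of the 6 leave-out fits) and Sox9 was not called. Sox9 stood at 319, 422 and 421 CPM in BEC and 367, 403 and 364 CPM in full (0.04 ± 0.16). The libraries of the 2 groups overlapped for it, and Sox4, Onecut1 and Hhex were not called either (-0.37, -0.24 and -0.17). Sox4 was called higher in full with the replicate block (adjusted p = 0.0261). Yap1, the Hippo pathway coactivator, and the ciliogenic factor Rfx3 were slightly higher in full (-0.29 and -0.43). The calls of Ehf and Yap1 were lost in all 6 leave-out fits, that of Rfx3 in 5 and that of Ovol1 in 3, and Ehf also with DESeq2 (adjusted p = 0.208), although its libraries did not overlap.

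Primary cilium genes differed by little but mostly one way. Of 37 members, 15 were higher in BEC, 1 (Nek8, -0.54) was higher in full and 21 were not called, and the median was 0.29. The 15 became 7 or 8 without BEC replicate 2, BEC replicate 3 or full replicate 1. Trpv4, a ciliary calcium channel that senses bile osmolality, stood at 78.6, 70.7 and 78.4 CPM in BEC and 37.2, 32.3 and 26.4 CPM in full. Nphp4, a transition zone protein, stood at 13.5, 17 and 16.7 CPM in BEC and 5.36, 6.47 and 4.42 CPM in full. These were the 2 largest differences of the list (1.25 and 1.54), with no overlap. The next were the Bardet-Biedl protein Bbs2 (0.66) and Cep290 (0.61, call lost without full replicate 1), and the other called members were below these. Pkd1, Pkd2 and Pkhd1, the polycystic disease genes, were not called (-0.32, -0.13 and 0.52). With the replicate block Pkd1 was called higher in full and Pkhd1 higher in BEC (adjusted p = 0.00292 and 0.00519), and 3 members of the list in place of 1 were higher in full. Without full replicate 1 the count was 3 too, with Pkd1 called (adjusted p = 0.0283).

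The basement membrane list had members called in both directions. Of 28 members, 10 were higher in BEC, 4 higher in full and 14 not called. Lama3, the alpha chain of the laminin that anchors epithelia at hemidesmosomes, stood at 96, 109 and 92.9 CPM in BEC and 14.6, 7.98 and 8.31 CPM in full. Lamb3, its beta chain, stood at 241, 252 and 237 CPM in BEC and 54.8, 50.1 and 31.3 CPM in full. Both were higher in BEC (3.26 for Lama3 and 2.42 for Lamb3). The receptor subunit Itgb4 (1.16), Lamb1 (2.82) and the collagen IV chains Col4a3 (2.38) and Col4a4 (2.23) were higher in BEC too. The linker protein Nid1 was the other way, at 44.9, 53.7 and 48.1 CPM in BEC and 209.8, 229.7 and 260.1 CPM in full (a log2 fold change of -2.25 ± 0.13, adjusted p = 2.92e-08). Nid2 (-2.27), Lamb2 (-0.64) and Col18a1 (-0.67) were higher in full with it. Nid1 and Col18a1 are also made by stellate cells, of whose markers Rgs5 and Ngfr were higher in full and the other 12 tested were not called. The part of stellate cells here was not tested.

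Notch and YAP are pathways that act in biliary specification. Of 17 Notch genes tested, 8 were called in either direction (47.1%), and of 20 YAP targets 6 (30%), beside 21.2% over all genes. Of the 17 Notch genes, 3 were higher in BEC (Notch3 2.07, Dll1 1.58 and Maml2 0.79), 5 higher in full and 9 not called. The 5 became 0 or 1 whichever of the 6 libraries was left out, and the call of Maml2 was lost in 3 of those fits. Notch1 (-0.94) and the ligand Jag2 (-1.13) were higher in full, and the target Hes1 was not called (0.22). Of the 20 YAP targets, 4 were higher in BEC, 2 higher in full and 14 not called, and the canonical targets Ccn1 and Ccn2 were among the last (-0.92 and -0.24). Ccn1 was called higher in full with the replicate block (adjusted p = 8.19e-07). The largest difference was Nt5e, the ectonucleotidase CD73, which was higher in full (-3.12).

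Growth factor pathways had members called in both directions. Of 30 Wnt genes tested, 8 were higher in BEC, 3 higher in full and 19 not called. Wnt7b, a ligand made by epithelia, stood at 127, 166 and 170.2 CPM in BEC and 35.1, 44.1 and 26.9 CPM in full. Lgr6, a receptor for R-spondins, stood at 0.385, 2.8 and 1.05 CPM in BEC and 19.7, 32.9 and 27.2 CPM in full. Wnt7b was higher in BEC (2.13) and Lgr6 in full (-4.23). Wnt9b, a ligand near 0 in full, stood at 0.626, 0.466 and 0.503 CPM in BEC and 0, 0.0892 and 0.0437 CPM in full, which is 12.2-fold higher in BEC by summed counts (95% counting interval 3.82 to 61.9), and its call was lost without full replicate 1. Of 31 genes of the TGF-beta and BMP pathway, 7 were higher in BEC, 9 higher in full and 15 not called. Itgb6, the integrin subunit that frees TGF-beta from its latent form, stood at 132, 103 and 108 CPM in BEC and 17.3, 10.8 and 9.14 CPM in full. Inhba, the activin A subunit, stood at 23.9, 52.5 and 48.4 CPM in BEC and 139, 240.3 and 315 CPM in full. Itgb6 was higher in every BEC library (a log2 fold change of 3.20 ± 0.25, adjusted p = 2.04e-06) and Inhba in every full library (a log2 fold change of -2.48 ± 0.51, adjusted p = 0.00681), as were the activin antagonist Fst (-2.85) and Tgfb1 (-0.74). Latent TGF-beta binding protein Ltbp1 (1.98), the other activin subunit Inhbb (1.35) and the BMP target Id1 (1.31) were higher in BEC. Of 25 genes of the EGF, FGF and HGF families, 7 were higher in BEC, 5 higher in full (3 without BEC replicate 2, BEC replicate 3 or full replicate 1) and 13 not called. Fgfr3 stood at 1004, 1076 and 1186 CPM in BEC and 444, 539 and 485 CPM in full. It was higher in BEC (1.15), together with the neuregulin receptor Erbb4 (1.25) and the co-receptor Erbb2 (0.88). The neuregulin receptor Erbb3 was not called. The ligand Nrg1 was higher in full, at 4.91, 9.23 and 10.7 CPM in BEC and 33.4, 35.5 and 50.8 CPM in full (-2.27). Mst1, the macrophage-stimulating protein made by hepatocytes, and its receptor Mst1r were both higher in full (-2.02 and -1.95).

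Inflammatory mediators were higher in BEC for 11 of 27 tested members, with 3 higher in full and 13 not called. Cxcl5, a neutrophil chemokine, stood at 479, 454 and 399 CPM in BEC and 83.3, 59.5 and 44.2 CPM in full. The groups did not overlap (a log2 fold change of 2.83 ± 0.38, adjusted p = 0.00039), and the neutrophil chemokine Cxcl2 (2.45), the lymphocyte and dendritic cell chemokine Ccl20 (1.53) and fractalkine Cx3cl1 (1.23) were on the same side. Tnf stood at 27.6, 41.7 and 49.9 CPM in BEC and 7.74, 13.3 and 14 CPM in full (1.77). Cxcl12, the ligand of CXCR4, was the other way, at 9.44, 12 and 14.4 CPM in BEC and 74.8, 62.9 and 72.2 CPM in full (-2.55), as was Cxcl14 (-1.84). Ccl2, a monocyte chemokine, was not called (-0.64). Among 12 macrophage markers tested, Cd68 and Csf1r were higher in BEC too and 10 were not called, and the part of macrophages in these genes was not tested. Antigen presentation gave 3 of 20 members higher in BEC (5 with the replicate block), 4 higher in full (2 without BEC replicate 1 or 3) and 13 not called. Cd74, the class II invariant chain, stood at 336, 335 and 317 CPM in BEC and 124, 137 and 109 CPM in full (a log2 fold change of 1.42 ± 0.27, adjusted p = 0.003). The class II gene H2-DMb1 was higher in BEC too, but H2-Aa, H2-Ab1, H2-Eb1, H2-DMa and the class II regulator Ciita were not called. The class I light chain B2m (-0.50) and H2-D1 were higher in full, and class I H2-K1 was not called. Interferon-stimulated genes leaned to full, with 2 of 24 higher in BEC (1 without BEC replicate 2 or full replicate 1 or 3), 11 higher in full and 11 not called. The 11 higher in full became 5 without BEC replicate 1 or full replicate 2, 6 without full replicate 3 and 7 without BEC replicate 3. Ifit2 (-1.08), Usp18 (-1.32), Gbp2 (-0.90) and Stat2 (-0.62) were higher in full and Oas2 (2.05) in BEC, and Isg15 was not called (-0.48).

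Genes present in BEC but near 0 at the earlier stages were then followed in full cells, taking those that averaged at least 20 CPM in BEC and at most 0.5 CPM in both early and intermediate cells. The rule uses no full library, but it picks genes for a high BEC level, which favours BEC above full. It found 64 genes, chosen after the data were seen. In full libraries these genes reached a median of 13.7% of their BEC level, with quartiles of 10.6% and 20.8%. They ranged from 5.85% for Dmbt1 to 56.7% for Sowaha, an ankyrin repeat protein. Of the 64, 12 were under 10%, 42 between 10% and 25%, and 2 (Sowaha and Clca3a2) over 50%. The percentages are a description of genes so chosen and were not tested. The median was 16.6%, 13.5% and 10.7% in full replicates 1, 2 and 3 taken alone. Full replicate 1 was the highest of the 3 for 40 genes and full replicate 3 the lowest for 45. Muc1, Mmp7, Cldn8, Fut2, Esrp1, Grhl2, Itgb6, Wnt7b and Kcnq1 are in this set. Whether every full cell made a small amount of these transcripts or a minority of cells made much cannot be told apart here. Resident biliary cells carried over into the full gate would add such transcripts as well, and their part was not tested.

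**Figure D4:**
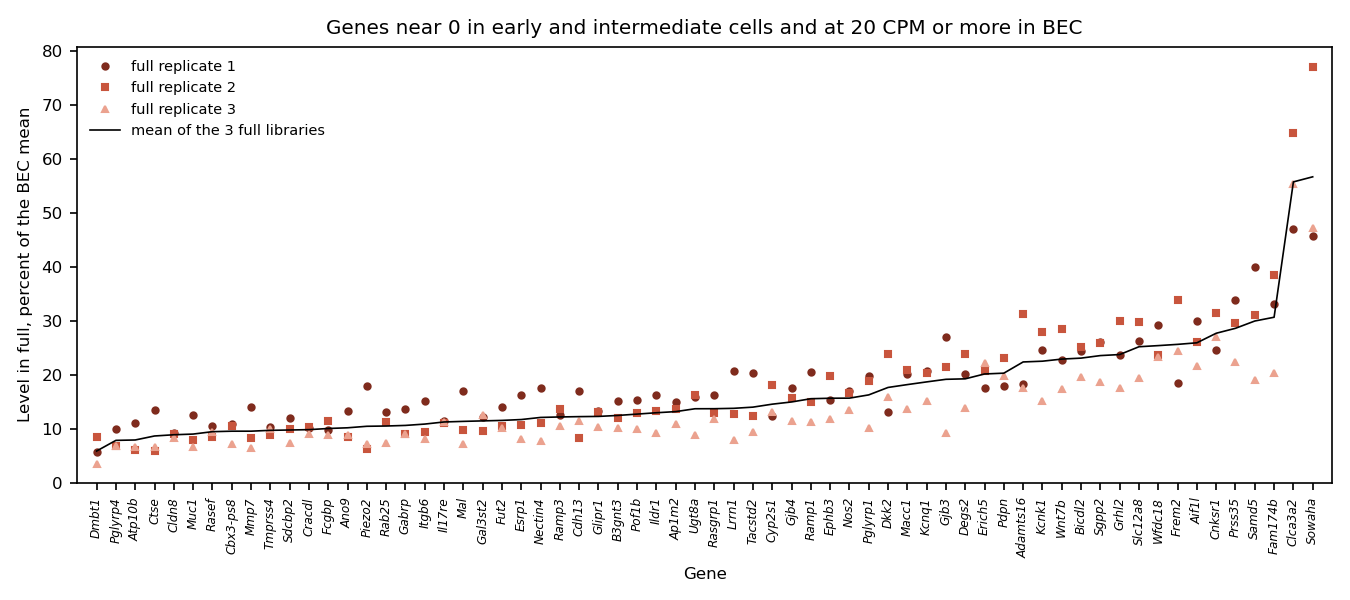
For each of the 64 genes with at least 20 CPM in BEC and at most 0.5 CPM in early and intermediate cells, points give each full library's level as a percent of the BEC mean and the line the mean of the 3 full libraries. Most genes lie between 10% and 25%, from 5.85% for Dmbt1 at the left to 56.7% for Sowaha at the right.

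Hepatocyte secretory genes were on the full side without exception among the called members. Of 27 secreted plasma proteins, 17 were higher in full, 0 higher in BEC and 10 not called, and of 40 complement and coagulation proteins 27, 0 and 13. In both lists 0 were higher in BEC at an unadjusted p under 0.05 in edgeR, and 0 by DESeq2. Alb, serum albumin, stood at 1650.3, 1422 and 1888 CPM in BEC and 2237, 2419 and 3089 CPM in full. Ahsg, the carrier protein fetuin-A, stood at 144, 185 and 209 CPM in BEC and 1298, 1190.2 and 1391 CPM in full. Vtn, the adhesive plasma protein vitronectin, stood at 34.3, 54.8 and 77.8 CPM in BEC and 662, 516 and 675 CPM in full. The 2 groups did not overlap for any of the 3, but the size differed widely, with a log2 fold change of -0.64 ± 0.16, adjusted p = 0.00863 for Alb, a log2 fold change of -2.85 ± 0.15, adjusted p = 1.07e-08 for Ahsg and a log2 fold change of -3.47 ± 0.25, adjusted p = 8.51e-07 for Vtn. The call of Alb was lost without BEC replicate 2 or full replicate 3 (adjusted p up to 0.0598). In early cells the means were 73507 ± 1345, 12149 ± 1343 and 4310.4 ± 519 CPM (SD, n = 3), so full libraries lay below early ones and above BEC for each. C1s1, a protease of the first complement component, stood at 14.3, 13.6 and 17.9 CPM in BEC and 153, 138 and 195 CPM in full (a log2 fold change of -3.40 ± 0.14, adjusted p = 2.53e-09). Fgb, the fibrinogen beta chain, stood at 112, 111 and 112 CPM in BEC and 462, 271 and 357 CPM in full (-1.71), and Fga, the alpha chain, at 198, 177 and 146 CPM in BEC and 483, 299.9 and 375 CPM in full (-1.15). Rbp4 (-2.40), Masp1 (-2.64), Serpind1 (-2.91) and Cpb2 (-2.50) also exceeded 4-fold, and C3, which many epithelia make, was not called (-0.01).

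Lipoprotein and bile genes followed in part. Of 22 apolipoprotein and lipoprotein secretion genes, 8 were higher in full (5 without BEC replicate 1 or 2 or full replicate 1 or 3), 0 in BEC and 14 not called. Apob (-1.13), its loading protein Mttp (-1.19) and Apoe (-0.76) were higher in full, while Apoa1 was not called (-0.24), except without BEC replicate 3 (-0.66, adjusted p = 0.0251). Of 28 genes of bile acid synthesis and hepatocyte bile transport, 13 were higher in full, 2 in BEC and 13 not called. Abcc2, the canalicular exporter of bilirubin conjugates, stood at 56.5, 43 and 40 CPM in BEC and 252, 200.1 and 258 CPM in full. Abcb4, the canalicular phospholipid exporter, stood at 4.67, 6.34 and 7.31 CPM in BEC and 28.8, 25.3 and 33.6 CPM in full. Both were higher in every full library (a log2 fold change of -2.35 ± 0.15, adjusted p = 8.13e-08, and -2.26), and the bile acid enzyme Cyp27a1 was too (-2.47). Cyp7a1, the rate-limiting enzyme of bile acid synthesis, was not called (0.15). Atp8b1, a flippase that protects the canalicular membrane, was higher in BEC (1.03).

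Intermediary metabolism was split by pathway. Of 19 genes of gluconeogenesis, glycogen and sugar use, 10 were higher in full, 0 in BEC and 9 not called, led by liver glycogen phosphorylase Pygl (-2.86) and fructose bisphosphatase Fbp1 (-2.39). Slc2a2, the liver glucose transporter GLUT2, stood at 61.5, 67.4 and 77.4 CPM in BEC and 136, 159 and 221 CPM in full (a log2 fold change of -1.32 ± 0.20, adjusted p = 0.00042). Of 38 genes of the urea cycle and amino acid breakdown, 15 were higher in full, 1 (Glul, 0.90) in BEC and 22 not called, and with the replicate block 2 were higher in BEC. The tyrosine enzyme Tat (-2.61) and the kynurenine enzyme Kynu (-2.60) were higher in full, whereas the urea cycle enzymes Cps1 and Ass1 were not called (0.02 and 0.17). Cytochrome P450 genes stood near the background, with 2 of 31 higher in full, 3 in BEC and 26 not called, and 4 were higher in full with the replicate block or without BEC replicate 3. Cyp2e1 and Cyp3a11, abundant drug-metabolising enzymes of hepatocytes, were not called (0.31 and 0.24), and Cyp2s1, an epithelial P450, was higher in BEC (2.78). Of 16 hepatocyte markers, 9 were higher in full and 7 not called, with sums of 5809 to 7507 CPM in full and 2798 to 3570 in BEC.

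Hepatocyte transcription factors and nuclear receptors were higher in full for 13 of 25 members, with 0 higher in BEC (also 0 at an unadjusted p under 0.05 and by DESeq2) and 12 not called. Hnf4a, the nuclear receptor that maintains hepatocyte identity, stood at 105, 141 and 145 CPM in BEC and 200.0, 179 and 183 CPM in full. Creb3l3, a membrane-bound factor of hepatic lipid genes, stood at 9.3, 8.95 and 10.5 CPM in BEC and 81.8, 68.5 and 80.7 CPM in full. Hnf4a differed little (a log2 fold change of -0.52 ± 0.12, adjusted p = 0.00449) and Creb3l3 strongly (a log2 fold change of -3.01 ± 0.11, adjusted p = 7.22e-10), and neither overlapped between groups. Early cells averaged 1141 ± 38.5 CPM of Hnf4a and 414 ± 32.3 CPM of Creb3l3, and intermediate cells 638 ± 49.6 and 264 ± 9.63 (SD, n = 3). The thyroid hormone receptor Thrb (-2.19), the bile acid receptor Nr1h4 (-0.90) and Foxa3 (-0.92) were higher in full. Foxa2 and Prox1 were not called, at -0.13 and -0.20.

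**Figure D5:**
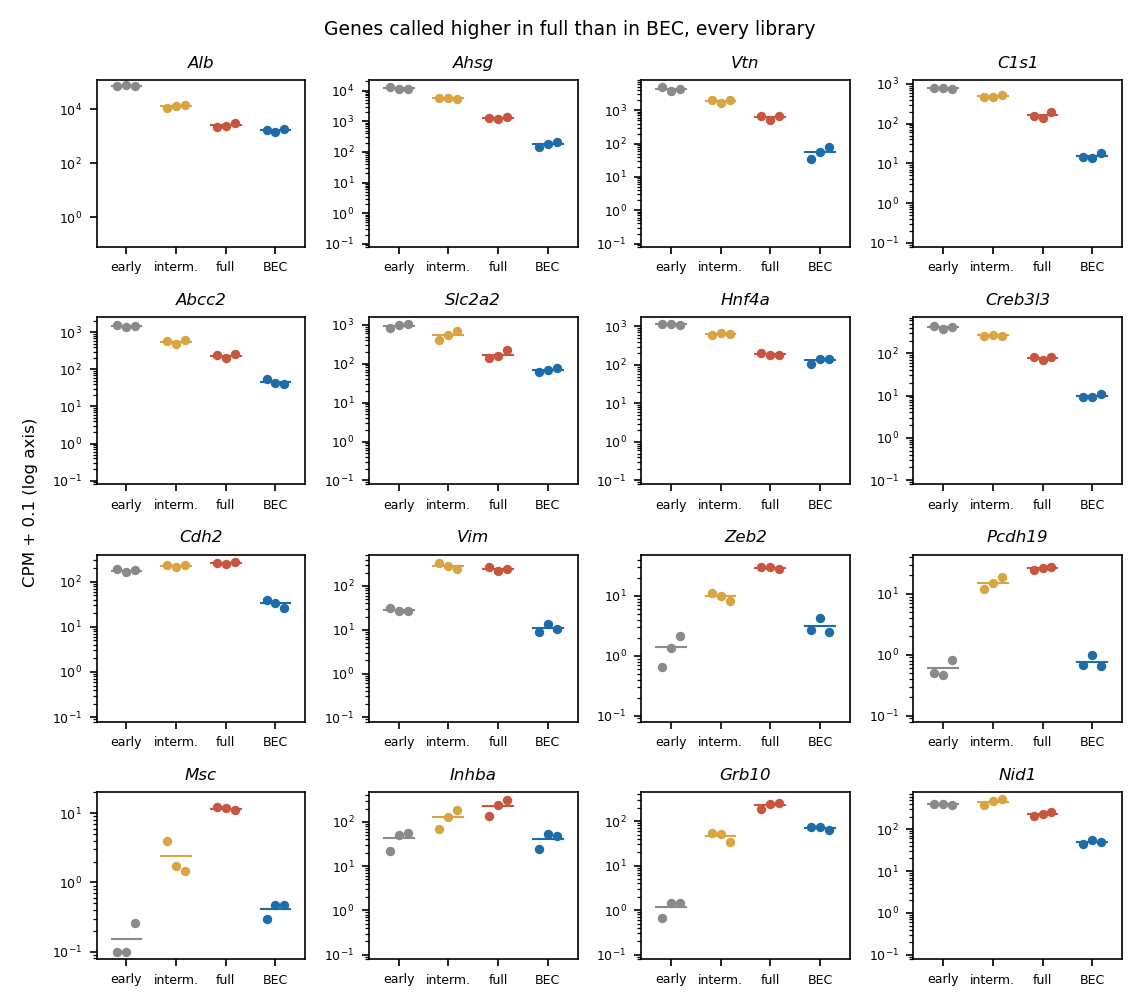
Every library's level (CPM + 0.1 on a log axis) is shown for 16 genes called higher in full, by group in the order early, intermediate, full and BEC, with a line at each group's mean. In the panels of Alb, Ahsg, Vtn, C1s1, Abcc2, Slc2a2, Hnf4a and Creb3l3 the level is highest in early cells, while in those of Zeb2, Msc, Pcdh19, Inhba and Grb10 it is highest in full cells.

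Of 23 tested members of the mesenchymal transition list, 11 were higher in full, 2 higher in BEC and 10 not called. The list was chosen with earlier results of these data known and holds Pcdh19 and Msc, which are not standard genes of this transition, so its count is not independent evidence of a direction. Vim, the mesenchymal intermediate filament vimentin, stood at 8.77, 13.7 and 10.4 CPM in BEC and 266, 223 and 248 CPM in full. Zeb2, a repressor of epithelial genes, stood at 2.6, 4.19 and 2.42 CPM in BEC and 29.8, 30.7 and 27.8 CPM in full. Full cells exceeded BEC in every library, with a log2 fold change of -4.49 ± 0.17, adjusted p = 1.08e-09 for Vim and -3.26 for Zeb2. Vim averaged 28.2 ± 2.14 CPM in early and 288 ± 44.5 in intermediate cells, and Zeb2 1.28 ± 0.735 and 9.7 ± 1.46 (SD, n = 3). Pcdh19, a protocadherin, stood at 0.578, 0.885 and 0.548 CPM in BEC and 24.5, 26.4 and 27.3 CPM in full. Msc, the helix-loop-helix factor musculin, stood at 0.193, 0.373 and 0.366 CPM in BEC and 12.1, 11.6 and 10.9 CPM in full. These were the 2 largest differences among the genes ranked above (a log2 fold change of -5.27 ± 0.24, adjusted p = 4.24e-09, and a log2 fold change of -5.18 ± 0.45, adjusted p = 1.39e-06), and Msc was close to the floor of 0.137 to 0.145 CPM in BEC. The collagen crosslinker Loxl2 (-3.33), the adhesion molecule Ncam1 (-3.42), Zeb1 (-1.78) and fibronectin Fn1 (-0.75) followed. Mmp7, the epithelial metalloprotease matrilysin, was the large exception, at 771, 617 and 569 CPM in BEC and 91.3, 53.4 and 41.9 CPM in full (a log2 fold change of 3.39 ± 0.34, adjusted p = 0.000152). Vim, Ncam1 and Fn1 are also expressed by stellate cells. Of the stellate list, Rgs5 and Ngfr (-2.13) were higher in full and the other 12 tested members were not called, and the median of the 14 was 0.18. The part of stellate cells in this set was not tested.

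Fetal liver and oncofetal genes were also higher in full, for 9 of 16 tested members, with 2 higher in BEC and 5 not called. Grb10, an imprinted adaptor of insulin signalling, stood at 74.5, 72.2 and 62.9 CPM in BEC and 184, 240.5 and 256 CPM in full. It did not overlap (-1.70 ± 0.18) and averaged 1.1 ± 0.471 CPM in early and 45.8 ± 10.5 in intermediate cells (SD, n = 3). The imprinted RNA Meg3 (-4.38), the chromatin factor Hmga2 (-3.48), the RNA-binding protein Igf2bp2 (-2.53) and alpha-fetoprotein Afp (-1.27) were higher in full with it, though the call of Meg3 was lost in 5 of the 6 leave-out fits and that of Afp without BEC replicate 2. The exceptions were the stem cell antigen Prom1, at 437, 370.0 and 395 CPM in BEC and 113, 104 and 113 CPM in full (1.86), and the imprinted factor Plagl1, at 56.2, 53.8 and 52.3 CPM in BEC and 10.7, 14.4 and 11.2 CPM in full (2.16).

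The called genes were then divided by how they moved between intermediate and early cells, a contrast that uses neither BEC nor full levels, although all 12 libraries share 1 estimate of spread. Of the 1718 genes higher in BEC, 678 (39.5%) were higher in intermediate than early, 296 (17.2%) lower and 744 (43.3%) not called. Of the 1725 genes higher in full, 643 (37.3%) were higher, 650 (37.7%) lower and 432 (25%) not called. Over all 16210 genes the shares were 28.6%, 25.5% and 45.8%. In the main fit, genes higher in full thus held 2 sets of similar number beside the 432 not called. With total counts alone the sets were not similar in number. Examples of the first, lower in intermediate than early, are Ahsg, Vtn and Creb3l3, which stood between early and BEC in full cells. The second holds genes already higher in intermediate cells, such as Vim, Grb10 and Pcdh19. Scaling by total counts alone moved these shares, with 1050 BEC genes and 994 full genes then higher in intermediate cells and 109 and 368 lower.

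Of 27 tested genes of the cell cycle, 0 were called in either direction by edgeR, 0 had an unadjusted p under 0.05, and 0 were called by DESeq2. Their median log2 fold change was -0.08. Top2a, a topoisomerase of dividing cells, was at 0.16. Genes that respond to tissue handling gave 1 call of 20, the heat shock protein Hspb1 (-1.44), which was higher in full. Without BEC replicate 3 the count was 2, and with the replicate block 6 were called higher in full, Atf3 among them. Atf3, a stress-induced transcription factor, stood at 54, 186 and 295 CPM in BEC and 109, 363 and 539 CPM in full, with replicate 1 lowest in both groups and an adjusted p of 7.89e-05 with the block.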

How the data were processed

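Counts per gene for 12 libraries were deposited by the authors as whole numbers. Per the submitters' processing notes, the tools were STAR 2.7.10b, featureCounts 2.0.1 and DESeq2, and the build was GRCm39. The annotation, strand setting and treatment of reads that match several genes are not given in the sources used here, so values of overlapping genes and close copies are uncertain. A second deposited table, of scaled counts, was not used here. The table held 53599 genes.

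Genes were kept by filterByExpr (16210), scaled by TMM factors and fitted with edgeR 4.0.16 in R 4.3.3, with all 12 libraries in 1 model and a term per group. Calls used the quasi-likelihood test at a Benjamini-Hochberg adjusted p under 0.05. Genes varied between replicates with a common biological coefficient of 14.8%. Levels are counts per TMM-scaled library size (CPM), and 3 counts, the floor, are 0.128 to 0.145 CPM. Floors cover counting error only. Alternatives used DESeq2 1.42.0, other factors, filters and samples, a replicate block, and fits without 1 library. The procedure was also run on simulated counts with 1 spread for all genes and no replicate pairing, which checks the code and not how it performs on these libraries.

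Named genes are Epcam, Cd24a, members of gene lists, and the 15 largest called differences per direction among genes averaging 10 CPM or more where higher, without overlap, leaving out predicted models. The members and lists were chosen with earlier results of these data known. Sowaha and Clca3a2 were named after their values were seen, and so was the rule behind the 64 genes near 0 in early and intermediate cells. Replicate numbers 1 to 3 appear in both groups' labels. Deviations from group means correlated between same-numbered BEC and full libraries at r = 0.257, 0.170 and 0.240 across genes, and at -0.216 to -0.0115 otherwise. Deviations sum to 0 within a group, so the negative values follow from the positive ones and are not separate support. Same-numbered libraries thus shared part of their variation. Calls in the text are from the fit without the replicate block (3443 genes), and the block gave 4078. What the numbers mark is not given in the sources used here. Some items are not reported here.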

Additional observations from a re-analysis of the deposited data

How the results depend on the processing

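The 3443 calls became 3825 with DESeq2, 3438 with median-of-ratios factors, 3437 with total counts only, 3315 with no filter, 2890 with a mean of at least 50 counts and 4099 with the 6 libraries alone. With the replicate block, 4078 genes were called, and 3429 of the 3443 kept call and direction. Both the block and the 6 libraries alone gave 4770. A minimum 2-fold change left 796, 405 higher in BEC and 391 in full. Leaving out 1 library gave 2629 to 2953 calls (1279 to 1490 higher in BEC, 1350 to 1492 in full), and leaving out replicate 1 of both groups, added after seeing the data, 2412 (1184 and 1228). In these fits a group of 2 libraries shares the spread estimated over all groups.

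Of 196 called genes named here, 167 kept their call without each library in turn and 184 under the 8 other settings apart from the minimum fold. The block ended the call of Stab1 and of no other named gene, and added calls for 10 named genes, whose values stand beside them. Of the 44 named genes not called, the 6 libraries alone called 8 and the 6 with the block 20, among them Ccl2, Ccn2, Cd5l, Clec4f, Col3a1, Hes1, Isg15, Onecut1, Prox1 and Wt1, which the block with all 12 libraries did not call, and Pkd1 was also called with no filter. Of 450 combinations of a list count of 5 or more and a setting, 31 moved by over 1.5 times. Of 33 list counts of 1 to 4, 14 moved so without 1 or more of the 6 libraries. By direction in intermediate against early cells, total counts only gave 1050 and 109 of the BEC genes and 994 and 368 of the full genes as higher and lower. The near-0 genes had a median of 10.7% in full replicate 3 alone, 15.3% at a 10 CPM minimum and 12.95% at 50 CPM. Sign changes occurred only among named genes that were not called, of which Apoa1 gained a call without BEC replicate 3. Cd24a was 0.012 with DESeq2, 0.012 with median-of-ratios factors, 4.5e-05 with total counts only and 0.013 with a mean of at least 50 counts. Cps1 was -0.0080 with no filter, -0.027 with the replicate block and -0.056 with the 6 libraries and the block. Leave-out ranges spanned 0 for Cd24a (-0.162 to 0.0991), Cps1 (-0.51 to 0.39), Sox9 (-0.032 to 0.16), C3 (-0.045 to 0.023), Apoa1 (-0.66 to 0.036), Ass1 (-0.25 to 0.41), Cyp7a1 (-0.33 to 0.67), Col1a1 (-0.11 to 0.42), Hamp (-0.52 to 0.27), Cd5l (-0.46 to 1.85), Clec4f (-0.13 to 1.66), Marco (-0.86 to 1.02) and Vsig4 (-0.47 to 2.10). The cause of these changes was not tested.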

Other observations

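Of 26 genes of heme synthesis and iron handling, 3 were higher in BEC, 8 higher in full and 15 not called. Tfr2, the transferrin receptor through which hepatocytes sense iron, stood at 5.97, 8.43 and 11.6 CPM in BEC and 44.8, 31.7 and 43.6 CPM in full (-2.21). Tfrc, the transferrin receptor that imports iron, stood at 102, 87.4 and 81.8 CPM in BEC and 47.1, 49.8 and 44.1 CPM in full (0.94). The libraries did not overlap for either gene, and the 2 receptors lay on opposite sides. Of the hepcidin pathway, Tmprss6 (-1.01) and Hfe (-0.73) were higher in full with Tfr2, and Hjv and Hamp were not called (-0.39 and -0.12). Of the ferritin chains, Fth1 was higher in BEC (0.37, call lost in 5 of the 6 leave-out fits) and Ftl1 in full (-0.52), and of the heme exporters Flvcr1 was higher in BEC (0.71) and Abcg2 in full (-1.26). Of the heme synthesis enzymes, Urod (-0.38) was higher in full, and Fech, the ferrochelatase that DDC is known to inhibit, was not called (-0.13). Fatty acid oxidation and ketone synthesis gave 10 of 27 members higher in full, 0 in BEC and 17 not called, led by the fatty acid transporter Slc27a2 (-1.59). Without full replicate 1 the 10 became 6, and the call of Urod was lost.

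Inhibitors of the cell cycle were higher in BEC at the Cdkn2a and Cdkn2b locus, while 0 of the 27 genes on the cell cycle list were called. Cdkn2a, which encodes p16 and p19Arf, stood at 6.26, 8.53 and 9.37 CPM in BEC and 1.62, 0.669 and 1.09 CPM in full (a log2 fold change of 2.83 ± 0.36, adjusted p = 0.000262). Cdkn2b, which encodes p15, stood at 22.1, 22.1 and 23.5 CPM in BEC and 7.66, 4.37 and 3.98 CPM in full (2.08). Neither overlapped between groups. Cdkn2c was higher in full (-0.54, call lost in 4 of the 6 fits that left out 1 library), and Cdkn1a, the main p53 target, was not called (-0.86), but was with the replicate block (adjusted p = 0.0406) and with DESeq2 (0.0227). Of the 20 p53 targets and CDK inhibitors, 2 were higher in BEC, 4 higher in full (0 to 2 whichever library was left out, and 7 with the replicate block) and 14 not called. Of 28 Nrf2 targets and glutathione enzymes, 4 were higher in BEC, 6 higher in full and 18 not called. Gpx2, an epithelial glutathione peroxidase, stood at 58.4, 47.3 and 52.1 CPM in BEC and 10.1, 5.75 and 6.08 CPM in full (2.84), whereas Nqo1 (-1.04, call lost in 4 of those fits) and Gstm1 (-0.88) were higher in full. Nos2, the inducible nitric oxide synthase, stood at 42.9, 62.7 and 59.4 CPM in BEC and 9.32, 9.1 and 7.43 CPM in full (2.67), and it was named after its values were seen.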
